A study of Mus musculus with 3 samples.

Results

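Cholesterol synthesis, its SREBP control, the LXR receptors with their targets, sterol handling and fatty acid synthesis were followed through 34 genes, picked by symbol out of the 55536 annotated mouse genes in the deposited tables. The set held 16 enzymes of cholesterol synthesis, of which 6 belong to the mevalonate arm and 10 to the squalene and sterol arm. Another 5 members encode the SREBP transcription factors and their controllers, 5 encode the LXR receptors and LXR targets, 4 handle sterols and 4 make fatty acids. RNA of the chromatin fraction was sequenced, after removal of ribosomal RNA, from primary bone-marrow-derived macrophages of the C57BL/6J strain that had been stimulated for 90 min with 100 ng/ml lipid A, the part of bacterial lipopolysaccharide that Toll-like receptor 4 recognises. The only group had 3 biological replicates, with 1 µg, 250 ng and 500 ng of starting RNA for replicates 1, 2 and 3, so that the amount and the replicate cannot be told apart. Sex and age were not collected for these samples. A single donor label was given for the libraries, and nothing in the labels ties them to separate animals or cultures, so p-values measure only how far these samples spread, which may be technical. Unstimulated cells were not analysed here, and the values below are levels in stimulated cells rather than responses to the stimulus.

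Cholesterol is built from acetyl-CoA through mevalonate to farnesyl pyrophosphate, which is joined to squalene, closed into lanosterol and trimmed to cholesterol. When sterols in the endoplasmic reticulum are low, the escort Scap carries SREBP proteins to the Golgi apparatus for cleavage, and the released factors switch on the synthesis enzymes together with the promoter-bound factors NF-Y and Sp1; when sterols are high, the Insig proteins hold Scap back. The liver X receptors (LXRs) do the opposite work: oxysterols activate them, and in macrophages they raise the ABC transporters that export cholesterol.

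The promoter sequence of members was read from RefSeq windows on GRCm38.p6, the same assembly as mm10, which reach from 250 bases before to 50 bases after an annotated start. A window was found for 27 of the 34 members, with 36 windows in all, and 7 members (Fdft1, Fdps, Sqle, Abcg1, Npc1, Scd1 and Scd2) had none. Exact matches were counted on both strands for the NF-Y box CCAAT, the Sp1 box GGGCGG, the sterol element TCACNCCAC and the LXR repeat, which is AGGTCA, 4 bases of any kind and AGGTCA again; none of these motifs contains another, and a gene with several windows counted if any of them matched. The stretches below lie upstream of the start and clear of annotated exons. They were chosen to show the member with an exact match to the sterol element (Hmgcs1) and 2 further mevalonate enzymes with NF-Y boxes (Mvk and Mvd). An SREBP controller (Insig1) and an LXR target (Abca1) were added. Capitals mark the matches on either strand.
Hmgcs1: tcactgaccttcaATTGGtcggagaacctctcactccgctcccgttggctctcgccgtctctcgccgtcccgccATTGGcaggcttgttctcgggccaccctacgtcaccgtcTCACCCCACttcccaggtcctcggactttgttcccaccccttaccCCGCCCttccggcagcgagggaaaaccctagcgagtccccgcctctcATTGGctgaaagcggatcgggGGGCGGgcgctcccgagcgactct
Mvk: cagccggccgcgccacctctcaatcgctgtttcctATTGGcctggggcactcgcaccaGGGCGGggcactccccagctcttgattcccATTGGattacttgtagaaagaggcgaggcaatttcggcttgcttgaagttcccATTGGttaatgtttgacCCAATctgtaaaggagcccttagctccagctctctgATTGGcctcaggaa
Mvd: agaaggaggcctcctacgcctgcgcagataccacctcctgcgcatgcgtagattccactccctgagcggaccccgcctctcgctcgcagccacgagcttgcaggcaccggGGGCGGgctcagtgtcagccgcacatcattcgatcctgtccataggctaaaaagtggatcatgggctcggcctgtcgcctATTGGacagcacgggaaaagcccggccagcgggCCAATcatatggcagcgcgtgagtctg
Insig1: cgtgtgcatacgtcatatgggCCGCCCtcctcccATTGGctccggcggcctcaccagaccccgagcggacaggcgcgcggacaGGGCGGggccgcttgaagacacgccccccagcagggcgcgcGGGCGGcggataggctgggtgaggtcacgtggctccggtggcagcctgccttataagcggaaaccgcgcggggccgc
Abca1: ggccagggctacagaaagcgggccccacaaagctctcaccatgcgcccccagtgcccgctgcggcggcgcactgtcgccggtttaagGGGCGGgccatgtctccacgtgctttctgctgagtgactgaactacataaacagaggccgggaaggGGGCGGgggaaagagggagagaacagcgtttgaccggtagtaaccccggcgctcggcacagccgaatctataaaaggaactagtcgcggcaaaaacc
The Hmgcs1 stretch is chr13:119690101-119690350 on the plus strand, the Mvk stretch chr5:114444061-114444268 on the plus strand and the Mvd stretch chr8:122443423-122443672 on the minus strand. The Insig1 stretch is chr5:28071162-28071362 on the plus strand and the Abca1 stretch chr4:53159896-53160145 on the minus strand.

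NF-Y boxes were present in the windows of 13 of 13 synthesis enzymes that had a window and of 8 of the 14 other members, against 42.3% of 8351 tested protein-coding genes and 41.1% of all 27025 genes with a window. Sp1 boxes were present for 12 of 13 synthesis enzymes and 9 of the 14 other members, against 69.6% of the tested protein-coding genes and 38.2% of all genes. Pmvk, phosphomevalonate kinase, was the synthesis enzyme without an Sp1 box. The sterol element was matched in Hmgcs1 and in no other member, at 137 to 129 bases before the start, and 1.31% of tested protein-coding genes and 1.44% of all genes held it. The exact LXR repeat was in no member window, in 0 of the 8351 tested protein-coding genes and in 0.0148% of all genes. A pattern this rare could hardly be met among 27 members, and inexact repeats were not searched. Its absence therefore does not show that the members lack LXR elements. Inexact sterol elements were not searched either, and the exact one was rare. Members without an exact match may therefore still hold a sterol element. Counted over all 32851 windows of 300 bases, NF-Y boxes were in 37.4%, Sp1 boxes in 35.7%, the sterol element in 1.24% and the LXR repeat in 0.0152%. The printed stretches hold 3 NF-Y boxes in Hmgcs1, 5 in Mvk, 2 in Mvd, 1 in Insig1 and 0 in Abca1. A match is a description of letters, and no binding was measured in these samples.

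**Figure D1:**
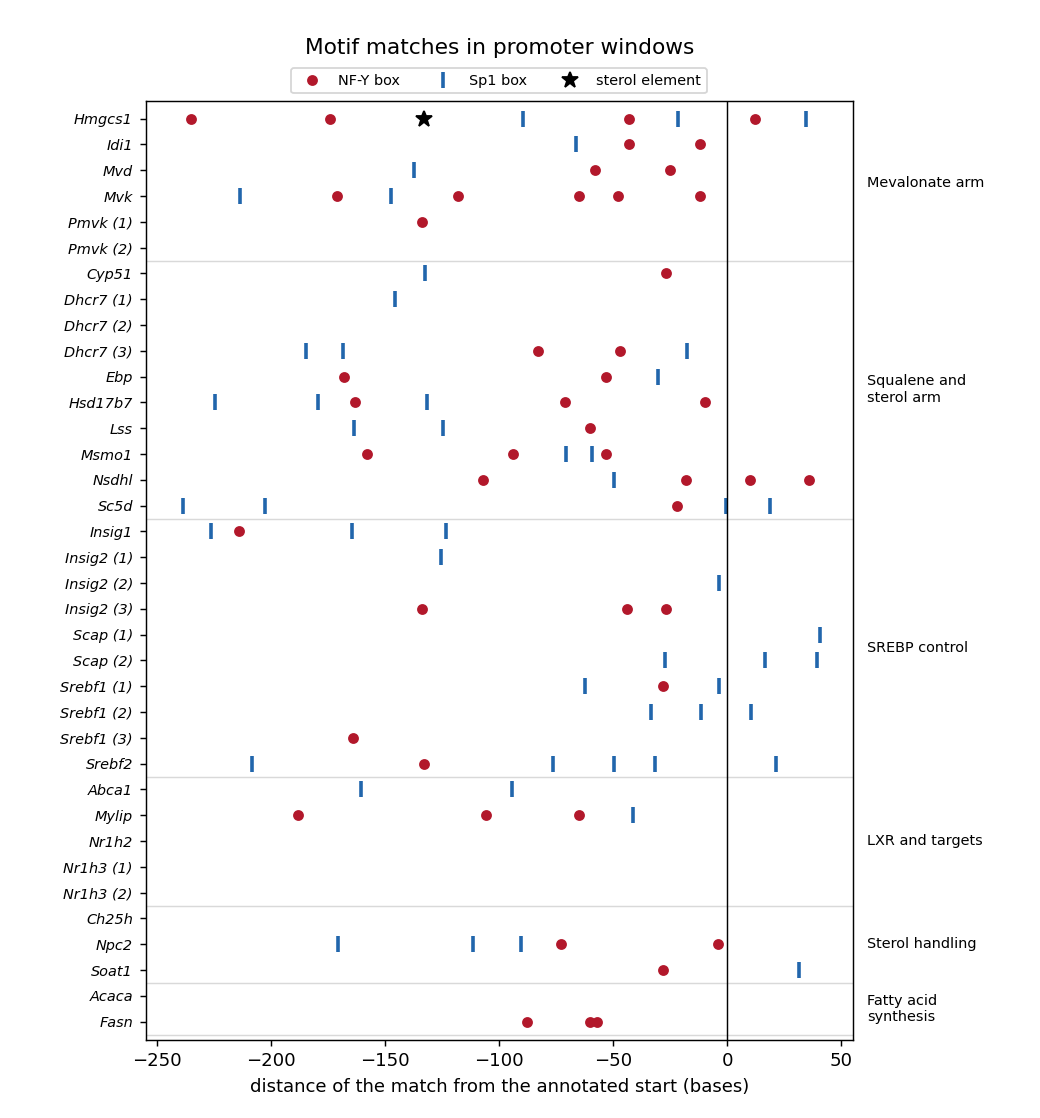
Each mark is an exact motif match on either strand in a promoter window of a member, placed by its distance in bases from the annotated start (vertical line); a number in brackets separates the windows of a gene, and windows with no mark had no match. NF-Y boxes (circles) appear in at least 1 window of each of the 13 synthesis enzymes that had a window, and the sterol element (star) in Hmgcs1.

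Library depth ran from 11277198 to 24965749 expected counts, of which 7715311 to 10036048 lay in protein-coding genes. Replicate 2 had the most counts in all. A gene at 0 counts may still have had up to 3 (0.12 to 0.266 CPM, or counts per 1000000), a limit that covers counting error only, since reads that carry no molecular identifiers may be copies. Of 12 macrophage markers, 9 were called above the bound described next and 0 below, and their summed TPM was 687 to 1183. The summed TPM of each list of other blood, dendritic or stromal cell markers stayed between 0 and 7.81 in the alignment-based tables, where the neutrophil genes Elane, Mpo, Ly6g and Retnlg were at 0 in all 3 libraries. In the alignment-free tables some were higher, such as the T cell gene Cd3d with 21.5, 8.70 and 14.6 TPM and the endothelial gene Pecam1 with 8.88 in replicate 1; their part in the members' values was not tested. Expected counts were fractional for Acaca, Fdft1, Hmgcs1, Idi1, Npc1 and Scap, as they are where reads are divided between genes, and whole for the 28 other members. In bulk RNA, fewer cells of a type and less RNA per cell cannot be told apart.

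Levels were taken from TPM, transcripts per 1000000, which is scaled for gene length and so can be compared between genes. The level of a gene was its log2(TPM + 1) minus the median of the 10520 tested protein-coding genes in the same library. That median gene stood at 5.5, 3.7 and 4.92 TPM in replicates 1 to 3. The added 1 compresses differences between libraries at low TPM, so a small SD or p-value there need not mean close agreement. A gene was called above or below where its level lay past 1 log2 unit by limma's treat test, with Benjamini-Hochberg adjustment at 0.05 over 13434 genes with a mean of 10 or more expected counts. On that scale 32 of the 34 members were tested, 11 were called above, 7 below and 14 neither, while 21.3% of all tested genes were called above and 21.3% below. The enzymes and the other members lay apart in description. Among the 15 tested synthesis enzymes 1 was called above and 5 below, with a median level of -0.89; among the 17 tested other members 10 were called above and 2 below, with a median level of 1.76. The median over all tested genes was -0.21. These counts describe the chosen members, and no test set the members against other genes.

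**Figure D2:**
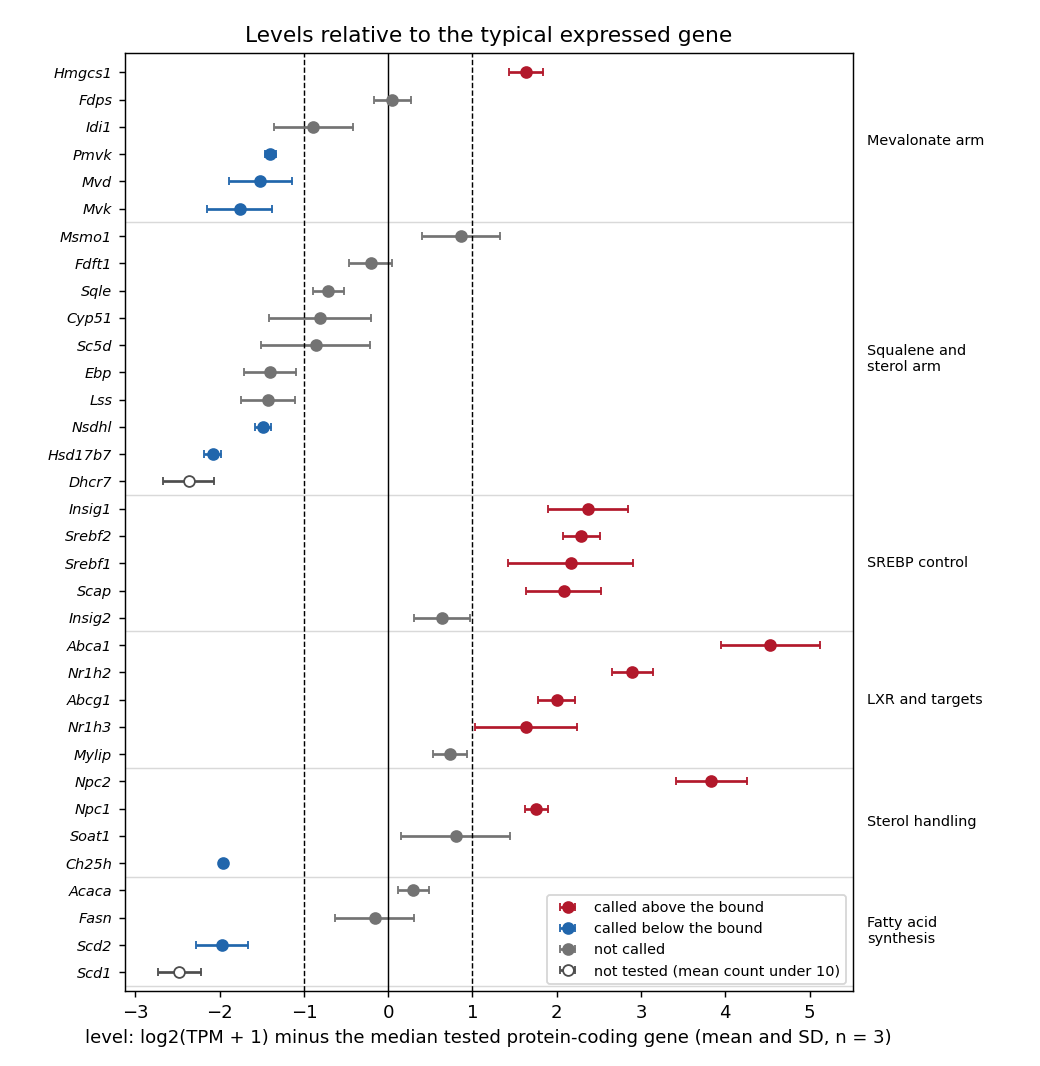
Points give the mean level of each member (log2(TPM + 1) minus the median tested protein-coding gene) and bars the SD over 3 libraries; dashed lines mark the bounds at -1 and 1, and colours give the call of limma's treat. Abca1 lies farthest to the right at 4.53, and the synthesis enzymes other than Hmgcs1 lie between -2.37 (Dhcr7, not tested) and 0.87 (Msmo1).

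Hmgcs1, the synthase that commits acetyl units to the mevalonate route, was the synthesis enzyme with the most chromatin RNA and the only member of the arm called above. Its TPM was 20.4, 11.5 and 19.4 in replicates 1 to 3. Replicate 2 held the lowest value, and all 3 exceeded those of every other mevalonate enzyme listed here. The mean level was 1.64 ± 0.20 (SD, n = 3), with an adjusted p of 0.0116 by limma's treat. Fdps, which makes farnesyl pyrophosphate, had 6.26, 3.07 and 5.77 TPM, a level of 0.05 ± 0.22 (SD, n = 3). Idi1, the isopentenyl pyrophosphate isomerase, had 3.58, 0.77 and 2.52 TPM, a level of -0.89 ± 0.47 (SD, n = 3). Neither was called, and both were lowest in replicate 2.

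The 3 remaining enzymes of the arm, which turn mevalonate into isopentenyl pyrophosphate in sequence, were all called below. Mvk, mevalonate kinase, had 0.44, 0.44 and 1.23 TPM and a level of -1.76 ± 0.39 (SD, n = 3; adjusted p = 0.0113 by limma's treat). Pmvk had 1.51, 0.70 and 1.32 TPM and a level of -1.40 ± 0.06 (SD, n = 3; adjusted p = 0.0483 by limma's treat). Mvd, the mevalonate diphosphate decarboxylase, had 0.69, 0.88 and 1.43 TPM and a level of -1.52 ± 0.37 (SD, n = 3; adjusted p = 0.0432 by limma's treat). The counts behind them were small, with 11, 21 and 31 for Mvk, 20, 17 and 26 for Pmvk and 15, 36 and 46 for Mvd. The Mvd call was lost on leaving out any 1 library (adjusted p 0.0718 to 0.104 by limma's treat) and the Pmvk call without replicate 2 (0.196) or 3 (0.231), while the Hmgcs1 call was lost without replicate 3 (0.138). Part of the exonic sequence of Hmgcs1 (12.1%) overlaps the antisense gene Gm48342 at 4.22 to 8.61 TPM, and 26.7% of that of Fdps overlaps the same-strand gene Gm43738, listed at 0 TPM, and whether counting used strand is not stated.

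In the squalene and sterol arm 9 of 10 enzymes were tested, 0 were called above and 2 below, with a median level of -0.86. Msmo1, a C4-methyl sterol oxidase, led the arm with 14.9, 5.08 and 10.4 TPM, so that replicate 1 was more than 2 times replicate 2. Its level of 0.87 ± 0.46 (SD, n = 3) was not called. Fdft1, squalene synthase, had 5.86, 2.86 and 3.45 TPM, a level of -0.21 ± 0.25 (SD, n = 3). Sqle, squalene epoxidase and a rate-setting enzyme of the pathway, had 3.58, 1.60 and 2.46 TPM, a level of -0.71 ± 0.18 (SD, n = 3). All 3 genes were highest in replicate 1 and lowest in replicate 2 in TPM.

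Cyp51, the lanosterol demethylase, and Sc5d, the sterol C5 desaturase, had the widest spread of levels in this arm. Cyp51 had 4.54, 0.73 and 2.51 TPM, a level of -0.81 ± 0.61 (SD, n = 3). Sc5d had 4.97, 0.86 and 1.73 TPM, a level of -0.86 ± 0.65 (SD, n = 3). Neither was called. Lss, which closes squalene epoxide into lanosterol, had 2.11, 0.51 and 0.96 TPM, and its level of -1.43 ± 0.32 (SD, n = 3) missed the threshold (adjusted p = 0.0644 by limma's treat). Ebp, the sterol isomerase, had 1.70, 0.39 and 1.59 TPM, and its level of -1.41 ± 0.31 (SD, n = 3) missed it as well (adjusted p = 0.074 by limma's treat). Both were called below when replicate 1 was left out, with adjusted p of 0.000943 for Lss and 0.011 for Ebp by the same test.

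The called enzymes of this arm were Nsdhl and Hsd17b7, which remove the C4 methyl groups together with Msmo1. Nsdhl had 1.47, 0.57 and 1.11 TPM and a level of -1.49 ± 0.09 (SD, n = 3; adjusted p = 0.0252 by limma's treat). Hsd17b7 had 0.66, 0.09 and 0.31 TPM and a level of -2.08 ± 0.11 (SD, n = 3; adjusted p = 0.00117 by limma's treat). Hsd17b7 rested on 18, 6 and 19 counts, and at such low TPM its small SD need not mean that the libraries were close. Dhcr7, which makes cholesterol from its last precursor in the Kandutsch-Russell branch, had 1, 5 and 6 counts, under the minimum, and 0.03, 0.13 and 0.13 TPM. The Nsdhl call was lost without replicate 2 (adjusted p = 0.132 by limma's treat) or without replicate 3 (0.176). Of the exonic bases of Fdft1, 18.3% overlap Ctsb on the opposite strand, a cathepsin gene at 139 to 200 TPM, and 3.76% of those of Cyp51 overlap Akap9.

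**Figure D3:**
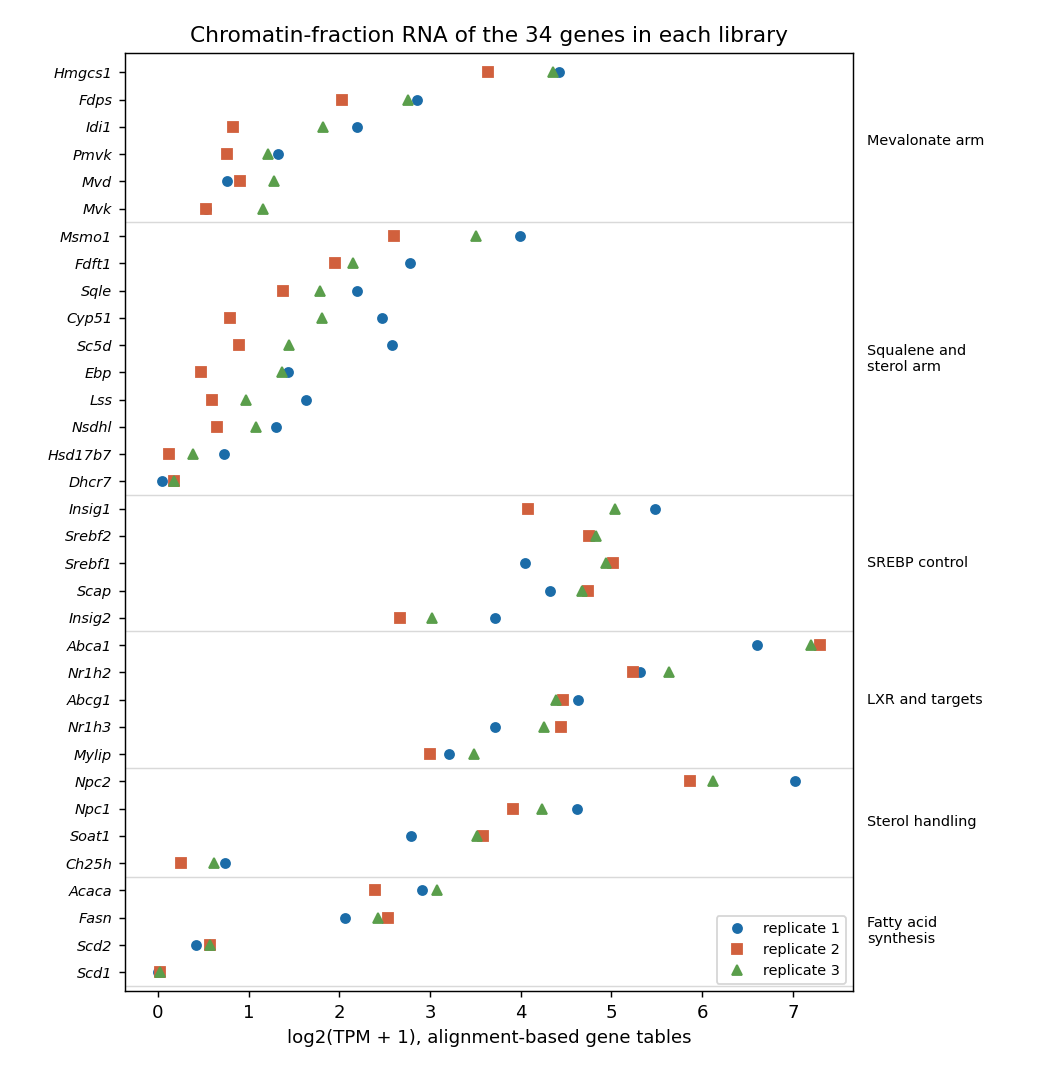
Each marker is the log2(TPM + 1) of a member in 1 library, in the alignment-based gene tables, with members grouped by role and ordered by mean level. Abca1 (96.3 to 156 TPM) and Npc2 (57.4 to 129 TPM) lie farthest to the right, and the squares of replicate 2 lie left of both other libraries for most synthesis enzymes.

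Of the 5 genes of the SREBP machinery 4 were called above and 0 below, with a median level of 2.17. Insig1, the sterol-sensing retention protein and itself an SREBP target, had 43.7, 16.0 and 31.9 TPM. Replicate 1 was highest and replicate 2 lowest, an order that the median gene also followed in TPM, and its level was 2.37 ± 0.47 (SD, n = 3; adjusted p = 0.00158 by limma's treat). Insig2, its paralog, had 12.1, 5.35 and 7.15 TPM and a level of 0.64 ± 0.33 (SD, n = 3), which was not called. Srebf2, the gene of the SREBP that drives cholesterol synthesis most directly, had 26.6, 25.95 and 27.5 TPM. These lay close together, but on log2 TMM-normalised CPM the libraries spanned 0.97, with replicate 1 lowest and replicate 2 highest. Its level was 2.29 ± 0.22 (SD, n = 3; adjusted p = 0.000831 by limma's treat).

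Srebf1, whose product leans towards fatty acid genes and which is an LXR target, had 15.5, 31.3 and 29.7 TPM. Replicate 1 was the lowest by a wide margin, and the level was 2.17 ± 0.74 (SD, n = 3; adjusted p = 0.00884 by limma's treat). Scap had 19.0, 25.8 and 24.6 TPM and a level of 2.08 ± 0.45 (SD, n = 3; adjusted p = 0.0036 by limma's treat). It too was lowest in replicate 1. With protein-coding isoforms alone, an alternative chosen after the data had been seen, Srebf1 was no longer called (level 1.44, adjusted p = 0.204 by limma's treat).

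LXR genes included the member with the most chromatin RNA, and 4 of 5 were called above and 0 below, with a median level of 2.00. Abca1, the exporter that loads cholesterol onto apolipoprotein A-I, had 96.3, 156 and 146 TPM from 12689, 42075 and 30357 counts. Replicate 1 was the lowest of the libraries, and the level was 4.53 ± 0.59 (SD, n = 3; adjusted p = 5.2e-05 by limma's treat). Abcg1, which passes cholesterol to high-density lipoprotein, had 23.9, 21.2 and 19.9 TPM and a level of 2.00 ± 0.22 (SD, n = 3; adjusted p = 0.00203 by limma's treat). Mylip, an E3 ubiquitin ligase induced by LXRs, had 8.28, 7 and 10.2 TPM and a level of 0.73 ± 0.20 (SD, n = 3), which was not called.

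Of the receptors, Nr1h2 (LXR beta) had 38.9, 36.6 and 48.7 TPM and a level of 2.90 ± 0.24 (SD, n = 3; adjusted p = 0.000167 by limma's treat). Nr1h3 (LXR alpha) had 12.1, 20.9 and 18.1 TPM and a level of 1.64 ± 0.60 (SD, n = 3; adjusted p = 0.0476 by limma's treat). In every library Nr1h2 exceeded Nr1h3, and their ranges did not overlap. The Nr1h3 call was lost without replicate 2 (adjusted p = 0.267 by limma's treat), without replicate 3 (0.149), with the alignment-free tables (0.276), with posterior mean TPM (0.0743) and with protein-coding isoforms alone (0.188).

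Sterol handling ranged from the second most abundant member to one of the scarcest, with 2 of 4 called above and 1 below. Npc2, the soluble lysosomal protein that takes up cholesterol freed from lipoproteins, had 129, 57.4 and 68.3 TPM. Replicate 1 was the highest, and the level was 3.83 ± 0.42 (SD, n = 3; adjusted p = 6.2e-05 by limma's treat). Npc1, the membrane protein to which Npc2 hands that cholesterol, had 23.6, 14.1 and 17.8 TPM and a level of 1.76 ± 0.14 (SD, n = 3; adjusted p = 0.00498 by limma's treat). Soat1, which esterifies cholesterol for storage, had 5.94, 11.0 and 10.5 TPM, a level of 0.80 ± 0.64 (SD, n = 3) that was not called. Ch25h, the single-exon gene of the enzyme that makes 25-hydroxycholesterol and is known to respond to interferon, had 0.67, 0.19 and 0.54 TPM from 11, 6 and 13 counts. Its level was -1.96 ± 0.02 (SD, n = 3; adjusted p = 0.00164 by limma's treat). That SD is small because the added 1 compresses such low TPM. On log2 TMM-normalised CPM the SD of Ch25h over libraries was 0.49.

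Fatty acid genes were near or under the median gene, with 0 of 3 tested members called above and 1 below. Acaca, acetyl-CoA carboxylase, had 6.54, 4.27 and 7.41 TPM, a level of 0.30 ± 0.18 (SD, n = 3). Fasn, fatty acid synthase, had 3.17, 4.79 and 4.36 TPM, a level of -0.16 ± 0.47 (SD, n = 3). Neither was called. Scd2, a stearoyl-CoA desaturase, had 0.34, 0.49 and 0.49 TPM and a level of -1.98 ± 0.31 (SD, n = 3; adjusted p = 0.00311 by limma's treat). Its paralog Scd1 had 0, 3 and 2 counts, at or under the 3 counts that a count of 0 allows, and was not tested.

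Pairs of partners or paralogs were set against each other within each library on the log2(TPM + 1) scale. Srebf2 minus Srebf1 was 0.74, -0.26 and -0.10, so the order of the SREBP genes turned between libraries (mean 0.13 ± 0.54, SD, n = 3; exact sign-flip permutation p = 1). In the other 5 pairs the sign was the same in all 3 libraries. Insig1 exceeded Insig2 by 1.73 ± 0.30 (SD, n = 3), Abca1 exceeded Abcg1 by 2.54 ± 0.49 (SD, n = 3) and Scd2 exceeded Scd1 by 0.51 ± 0.07 (SD, n = 3). Nr1h3 minus Nr1h2 was -1.26 ± 0.42 (SD, n = 3) and Npc1 minus Npc2 was -2.08 ± 0.28 (SD, n = 3). Each of these 5 had a two-sided exact permutation p of 0.25 (0.3 after Benjamini-Hochberg adjustment over 6 pairs), the smallest that 3 libraries allow. With the alignment-free tables the Insig1 difference from Insig2 was 0.41.

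A further 51 genes of these pathways were read from 3 lists. Among 22 further sterol and SREBP genes 6 were called above and 3 below. Nfya, an NF-Y subunit, led that list with 58.0, 33.0 and 47.0 TPM, followed by Rnf145, an E3 ligase of sterol metabolism, with 61.2, 28.2 and 38.6 TPM. Stard4 (level -1.61) and Acat2 (-1.72) were among the lowest there, and both were called below.

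Among 12 tested of 13 further LXR genes 2 were called above, the corepressor Ncor1 (level 3.24) and the phospholipid transfer protein Pltp (3.04), and 1 below, Smpdl3a (-1.64). Lipa, the lysosomal acid lipase, had a level of 1.31 and was not called. Of the retinoid X receptors that pair with LXRs, Rxra had 0.76, 2.09 and 1.52 TPM and Rxrg was listed at 0 in all 3 libraries. Among 12 tested of 16 further fatty acid genes 3 were called above, namely Acly (2.04), Mlxip (2.02) and Elovl1 (1.98), and 6 below. Fads2, Me1 and Mlxipl were the lowest there, each under the count minimum. The lists were drawn up with earlier results of these data known, and their counts stand as description.

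Synthesis enzymes and the other members differed in which library was lowest. Each library was compared on log2 TMM-normalised CPM, a scale that ranks libraries within a gene. Of the 15 tested synthesis enzymes 11 (73.3%) were lowest in replicate 2, against 34.8% of all tested genes, and 0 were highest there, against 33.7%. The 4 exceptions were Mvk, Mvd and Lss, lowest in replicate 1, and Fdft1, lowest in replicate 3. Of the 17 other tested members 12 (70.6%) were lowest in replicate 1, against 43% of all tested genes, and 11 were highest in replicate 2. The 22 further sterol and SREBP genes were mixed, with 50% lowest in replicate 2, 45.5% lowest in replicate 1 and 7 genes highest in replicate 2. With DESeq2 size factors these counts of members were the same. Over all 13434 tested genes, 4494 were then lowest in replicate 2 (4677 with TMM), 4722 highest there (4531) and 5834 lowest in replicate 1 (5772).

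Idi1 lay 0.73 above its own mean in replicate 1, 0.91 below it in replicate 2 and 0.17 above it in replicate 3, in log2 units. Cyp51 followed with 0.79, -0.70 and -0.10, and Sc5d with 0.91, -0.73 and -0.18. Srebf1 ran the other way with -1.10, 0.82 and 0.28, as did Fasn with -0.86, 0.69 and 0.18 and Abca1 with -0.85, 0.69 and 0.16. Insig1 (0.32, -0.49 and 0.17), Insig2 and Ch25h were the 3 members outside the enzymes that were lowest in replicate 2. The median of replicate 3 minus replicate 2 was 0.50 over the synthesis enzymes, -0.33 over the other members and -0.002 over all tested genes. The median SD over libraries was 0.46 for the members and 0.398 for all tested genes. Replicate 2 was also the library with the least starting RNA, the most counts in all and, with 10036048 of 24965749 counts, the lowest share in protein-coding genes; the part of these in the pattern was not tested.

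**Figure D4:**
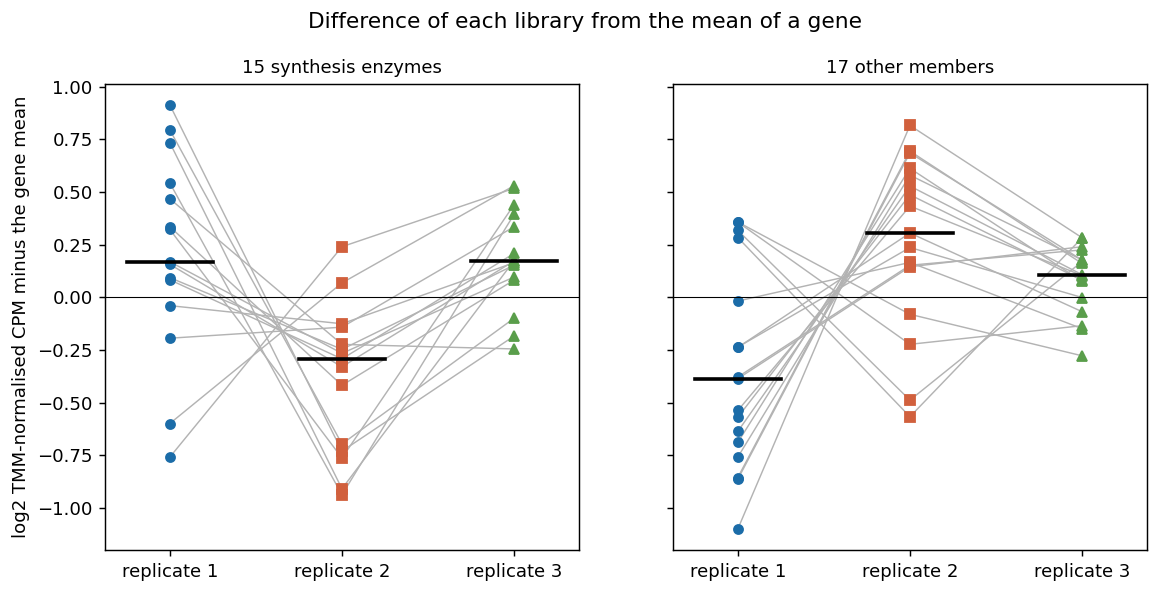
Grey lines join the 3 libraries of each tested member, as log2 TMM-normalised CPM minus the mean of the gene, and black bars are medians. Among the synthesis enzymes (left) 11 of 15 are lowest in replicate 2, while among the other members (right) 12 of 17 are lowest in replicate 1.

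Chromatin RNA carries unspliced and partly spliced transcripts, so the tables were also read by isoform. Shares were taken in the alignment-free tables for genes whose mean reached 1 TPM. In 10 of 30 members with that much RNA, over 50% of the TPM lay in isoforms not typed as protein coding in all 3 libraries, against 45.4% of 11135 protein-coding genes. These were Dhcr7, Ebp, Fdft1, Lss and Sqle among the enzymes, and Insig1, Insig2, Srebf1, Nr1h3 and Npc2. In the alignment-based tables it was 9 of 28 members, against 34.5% of 8691 genes: Dhcr7, Fdft1 and Insig2 were no longer among them, with noncoding shares of 32.3% for Fdft1 and 37.2% for Insig2, and Fdps and Msmo1 were added. TPM weighs short isoforms more than counts do. By expected counts the noncoding share was 9.02% for Fdft1, 12.95% for Insig2, 15.04% for Dhcr7, 19.9% for Srebf1 and 20.6% for Insig1, and 53.2% to 83.8% for Nr1h3, Sqle, Npc2, Lss and Ebp. In the alignment-free tables the median noncoding share was 45.3% in the members and 52.6% in all those genes, while the median share of isoforms typed as retained intron was 35.3% in the members and 20.1% in all.

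Npc2 had 90.2% ± 1.5 (SD, n = 3) of its TPM in a pair of retained-intron isoforms. Npc2-202 (chr12:84764786-84772914) had 93.9, 22.5 and 40.1 TPM and Npc2-203 (chr12:84756492-84762540) 62.6, 17.6 and 26.8 TPM, while the coding Npc2-201 had 20.3, 4.25 and 6.23 TPM. In each library the coding isoform was the lowest of the 3 in TPM. By alignment-based expected counts, Npc2-201 (931, 588 and 545) exceeded Npc2-202 (364, 279 and 282) in every library. Npc2-203 was the highest by that measure (1869, 1779 and 1583). With protein-coding isoforms alone, Npc2 was still called above, at a level of 1.86 (adjusted p = 0.0314 by limma's treat). Insig1 had 58.7% ± 3.3 (SD, n = 3) in Insig1-202, a retained-intron isoform of 2 exons. Ebp had 94.5% ± 4.9 (SD, n = 3) and Sqle 66.5% ± 3.9 (SD, n = 3) in retained-intron isoforms. The whole Ebp gene had 17, 8 and 22 alignment-based expected counts in replicates 1 to 3, so its share is imprecise.

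Srebf1 differed from these in kind, since 0 of its 12 isoforms is typed as retained intron. Its coding isoform Srebf1-201, with 19 exons, had the highest mean TPM of its isoforms, at 13.7%, 19.6% and 17.9% of the gene, and 76.2% ± 5.4 (SD, n = 3) lay in noncoding isoforms, all typed as processed transcripts. Abca1 was at the other end, with 72.3%, 92.4% and 86.4% of its TPM in the 50-exon coding isoform Abca1-201 (chr4:53030787-53159895, minus strand). Sc5d, Pmvk and Mylip have coding isoforms only in the annotation and Ch25h a single one. Across the 34 members the isoform with the highest mean TPM was coding for 23 and a retained intron for 10, and it was the same in the alignment-based tables for 26.

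**Figure D5:**
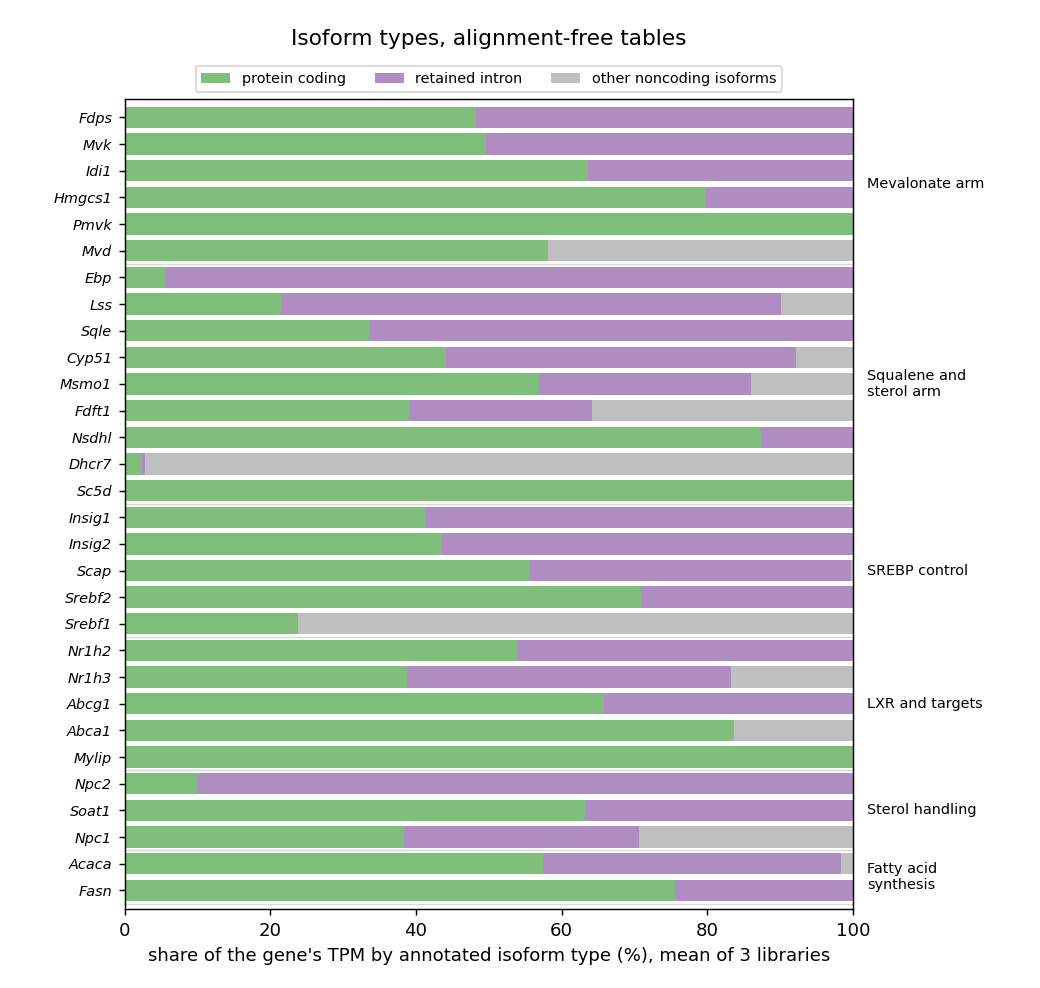
Bars split the TPM of each of 30 members whose mean reached 1 TPM by annotated isoform type, as the mean share over 3 libraries in the alignment-free tables. Noncoding isoforms hold 90.2% in Npc2 and 94.5% in Ebp, and 0 in Pmvk, Sc5d and Mylip.

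Both quantifications of each library came from the same reads, and 0 of 32 tested members differed between them past 1 log2 unit by limma's treat, where 2.55% of 13427 tested genes did; at an unadjusted p under 0.05 the count of members was 0 too. The difference, alignment-free minus alignment-based on centred log2(TPM + 1), was below 0 in 22 of 32 members, with a median of -0.18 beside -0.23 over all tested genes. Insig2 had the highest difference at 0.69 ± 0.20 (SD, n = 3), followed by Lss at 0.61 ± 0.20 (SD, n = 3). Ch25h at -0.65 ± 0.45 (SD, n = 3) and Insig1 at -0.63 ± 0.11 (SD, n = 3) had the lowest. Dhcr7, too low in the alignment-based tables to be tested, had 6.72, 2.15 and 2.36 TPM in the alignment-free ones. Of this, 96.1% to 99.6% was assigned to Dhcr7-206, a processed transcript of 2 exons that stood at 0 TPM in all 3 libraries in the alignment-based tables.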

How the data were processed

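Chromatin-fraction RNA of 3 libraries from 1 group was analysed, with group, replicate, dose, time and RNA amount taken from the labels. The members and gene lists were chosen with earlier results of these data known. The authors deposited expected counts and TPM per gene and isoform for the mm10 genome with GENCODE M21, per the file headers and labels, and a second, alignment-free table of estimated counts and TPM per isoform, summed here to genes. The aligner, its version, the strand setting and any filters: not given in the sources used here. TPM was scaled by the authors to a sum of 1000000 over all entries, per the deposited values. The deposited score, a posterior standard deviation, was not used, and the deposited posterior mean TPM served as an alternative.

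Levels and differences between quantifications were tested with limma 3.58.1 in R 4.3.3 (treat, intercept only, bound of 1 log2 unit). Pairs were tested with exact two-sided sign-flip permutations. Expected counts were rounded to whole numbers for TMM factors (1.438, 0.727 and 0.957) and log2 CPM (prior count 2) in edgeR 4.0.16. The pseudocount of 1 understates differences between low genes. Both tests across genes were checked on simulated data with known changes. All members were named; of the other pathway genes, the 3 highest and 3 lowest of each list by mean level, some of which are not reported here; and of each member the isoform with the highest mean TPM. Other isoforms of Npc2 were added after their values were seen. Of the members, 28 had whole expected counts in all libraries (tolerance 0.005), and 12 share exonic bases with another gene. Alternatives were a pseudocount of 0.1, no count minimum or one of 100, a median over all tested genes, alignment-free TPM, posterior mean TPM, an edgeR quasi-likelihood test at the bounds with a length offset, DESeq2 1.42.0 size factors, leaving out each library and, added after the data were seen, protein-coding isoforms only.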

Additional observations from a re-analysis of the deposited data

How the results depend on the processing

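The number of members called above was 9 to 11 on leaving out 1 library, and 10 to 15 under the other alternatives except a count minimum of 100, which gave 3 of 22 tested members. The number called below rested on low genes: it was 3 to 7 on leaving out 1 library, 2 with no count minimum, 3 with the minimum of 100, 3 with the median of all tested genes as reference (which moved the median level of all genes from -0.21 to -0.005) 1 with protein-coding isoforms alone and 7 to 9 under the others. None of the 7 original calls was kept with no minimum or with protein-coding isoforms, where Ebp was called instead (adjusted p = 0.0134 by limma's treat). The coding isoforms of Ebp held only 3.77, 1.61 and 1.41 expected counts in replicates 1 to 3. With the minimum of 100 none of the 7 could be kept, because all had lower mean counts and were not tested. Sqle, Cyp51 and Sc5d were called below there (adjusted p of 0.00889, 0.0272 and 0.0267 by limma's treat). Without a minimum the reference gene was lower, and levels turned to 0.063 in Idi1, 0.75 in Fdft1, 0.24 in Sqle, 0.14 in Cyp51, 0.092 in Sc5d and 0.79 in Fasn. With the minimum of 100 the reference was higher, and levels turned to -1.02 in Fdps, -0.20 in Msmo1, -0.43 in Insig2, -0.34 in Mylip, -0.27 in Soat1 and -0.77 in Acaca. Fdps also turned to -0.051 with alignment-free TPM, to -0.28 with protein-coding isoforms and ranged from -0.032 (without replicate 3) to 0.165 (without replicate 2); Fdft1 to 0.15 with protein-coding isoforms; and Fasn to 0.044 with the median of all genes, to 0.27 with protein-coding isoforms and ranged from -0.404 (without replicate 2) to 0.091 (without replicate 1). None of these turned levels passed the test in the original setting or under that alternative. Srebf2 minus Srebf1 turned to -0.068 with alignment-free TPM and ranged from -0.184 (without replicate 1) to 0.319 (without replicate 2). A noncoding isoform majority was found in 6 of 18 members at a minimum of 5 TPM, against 52.1% of 6826 genes, in 9 of 28 members in the alignment-based tables and in 10 to 12 on leaving out 1 library. For turns other than those of the count minimum the cause was not tested. No paired analysis was possible because there was 1 group. Members under about 20 counts in a library, such as Hsd17b7 and Ch25h, are limited by depth.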
